A study of Mesocricetus auratus with 7 samples.

Results

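The genes described here are those whose transcripts were lower in each of 3 libraries of germinal vesicle (GV) oocytes from Mov10l1 KO golden hamsters (Mesocricetus auratus) than in each of the 4 libraries from WT and HET females. Levels are given as CPM, the counts of a gene for each 1000000 counts of its library. A gene was taken where its mean CPM was at least 2 and its lowest value in the WT and HET libraries was more than 1.4 times its highest value in the KO libraries. Of 22285 genes in the table, 15531 had a count, 8414 reached the minimum level and 43 passed the fold, which is 0.511% of the 8414. Mov10l1 itself was set aside, as were 9 genes that were ordered WT over HET over KO, among them 2 in which both WT libraries were more than 2 times above all others. This left 33 genes. They were chosen by the CPM of all 7 libraries, and the difference between KO and the other libraries is described here and was not tested as a finding.

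Fully grown GV oocytes are arrested in prophase of meiosis I and live on mRNA that they stored while growing, since their transcription is largely shut down. MOV10L1 is an RNA helicase of germ cells that acts early in the making of piRNAs, small RNAs that guide PIWI proteins to matching RNAs, above all those of retrotransposons.

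The 2 WT libraries came from animals of 37 (WT 1) and 17 weeks (WT 2), the 2 HET libraries from animals of 40 (HET 2) and 36 weeks (HET 3), and the 3 KO libraries from animals of 45 (KO 1), 40 (KO 2) and 36 weeks (KO 3). The mutant allele lacks exon 20, which encodes the helicase domain. It was made by CRISPR/Cas9 editing and descends from 1 founder female, and carriers were bred to outbred WT animals before HET parents were mated. According to the study, HET females are fertile and KO females are sterile, and the comparison asks whether oocytes already differ in their mRNA before ovulation. Total RNA of 6 to 12 fully grown oocytes was amplified for each library, although the labels give the molecule as polyadenylated RNA. In such pools, less RNA per oocyte and fewer oocytes carrying a transcript cannot be told apart.

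Total counts were 24242442 to 33956304 per library. Mov10l1 (ENSMAUG00000003667) was at 13.8 and 36.2 CPM in the WT, 15.9 and 18.8 in the HET and 4.60, 6.40 and 3.26 in the KO libraries, so that each KO library lay below each WT and HET library. WT 1 lay below both HET libraries, so that this gene does not separate WT from HET. Reads over the deleted exon alone were not analysed here. The count table and the gene table used here do not pair the Ensembl identifiers with gene names, apart from Piwil3 and Tex101, which are listed by symbol and are not among the 33 genes. Gene names in the study's supplementary lists were not used here. The genes below are therefore given by identifier with no statement of function, and the markers of oocytes, follicle cells and blood, the piRNA pathway list and the other gene lists were not counted. The part of other cell types in any value below was not tested.

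Together the 33 genes took a small share of the transcriptome. Their summed level was 438 and 512 CPM in the WT, 529.6 (HET 2) and 549 (HET 3) in the HET and 199 (KO 1), 191 (KO 2) and 189.5 (KO 3) in the KO libraries. The KO sums lay close to each other and far below the other 4. In the median gene, KO reached 29.0% of the mean of the WT and HET libraries, with a range from 5.88 to 59.3%. Over all 8414 genes the median was 93.3%. KO was under 50% of the WT and HET mean in 28 of the 33 genes (5.35% of the 8414 genes), and under 25% in 10 (0.784%).

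**Figure D1:**
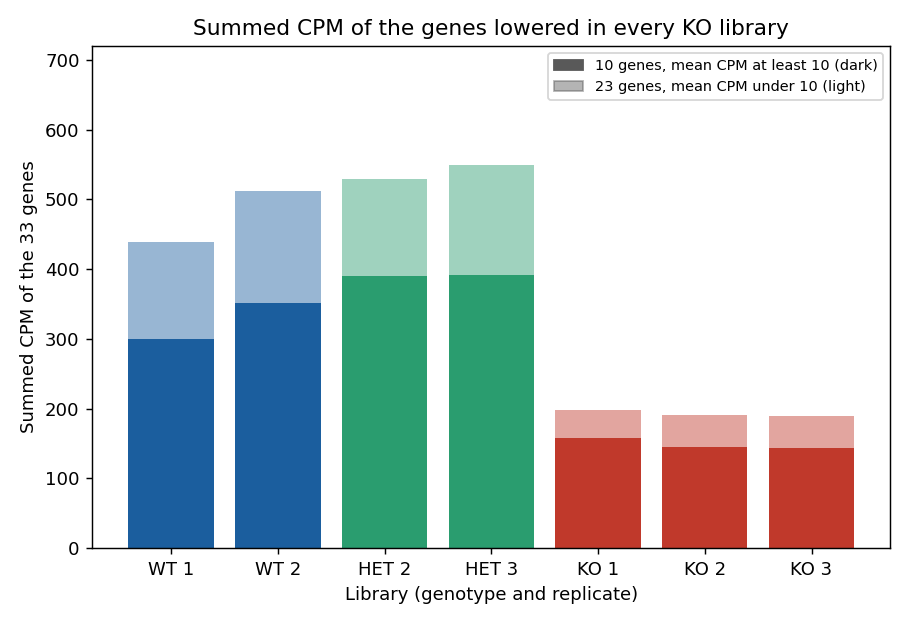
Summed CPM of the 33 genes (vertical axis) in each of the 7 libraries, coloured by genotype, with the 10 genes averaging 10 CPM or more as the dark part and the 23 genes under 10 CPM as the light part of each bar. The KO bars reach 189.5 to 199 CPM and the WT and HET bars 438 to 549 CPM.

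Of the 4 genes that averaged 30 CPM or more, 3 differed by less than 2 times and varied little within groups. CPM is not divided by transcript length here, so that it orders genes by reads and not by the number of transcripts. ENSMAUG00000005277 had 60.3 and 68.7 CPM in the WT, 53.1 and 68.3 in the HET and 32.4, 37.5 and 34.3 in the KO libraries. Its level averaged 62.6 ± 7.44 CPM (SD, n = 4) over WT and HET and 34.7 ± 2.54 CPM (SD, n = 3) over KO, and its separation, the lowest WT or HET value over the highest KO value, was 1.42. ENSMAUG00000000467 had 52.7 and 63.1 CPM in the WT, 57.4 and 51.0 in the HET and 34.3, 32.7 and 32.8 in the KO libraries. Its KO mean was 59.3% of the WT and HET mean, the highest share among the 33 genes. ENSMAUG00000005080 had 48.6 and 44.3 CPM in the WT, 45.2 and 47.5 in the HET and 26.3, 26.03 and 28.2 in the KO libraries. In this gene the SD was 4.29% of the mean among WT and HET and 4.28% among KO, and the KO mean was 57.8% of the other mean. All 3 genes thus lay in narrow bands, at 1.69 to 1.80 times lower CPM in KO, and the rule requires that the bands do not overlap.

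ENSMAUG00000001348 was read as often as these but behaved differently. It had 32.9 and 77.6 CPM in the WT, 115 (HET 2) and 110.2 (HET 3) in the HET and 16.0, 8.97 and 1.28 in the KO libraries. Both HET libraries lay above both WT libraries, and KO 3 lay far below KO 1. The KO mean was 8.74 ± 7.35 CPM (SD, n = 3) against 83.9 ± 37.8 (SD, n = 4), 9.59 times lower. In 5 of the 7 libraries its count was not a whole number, which means that some of its reads also matched or overlapped another locus and were divided, so that its level is uncertain.

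**Figure D2:**
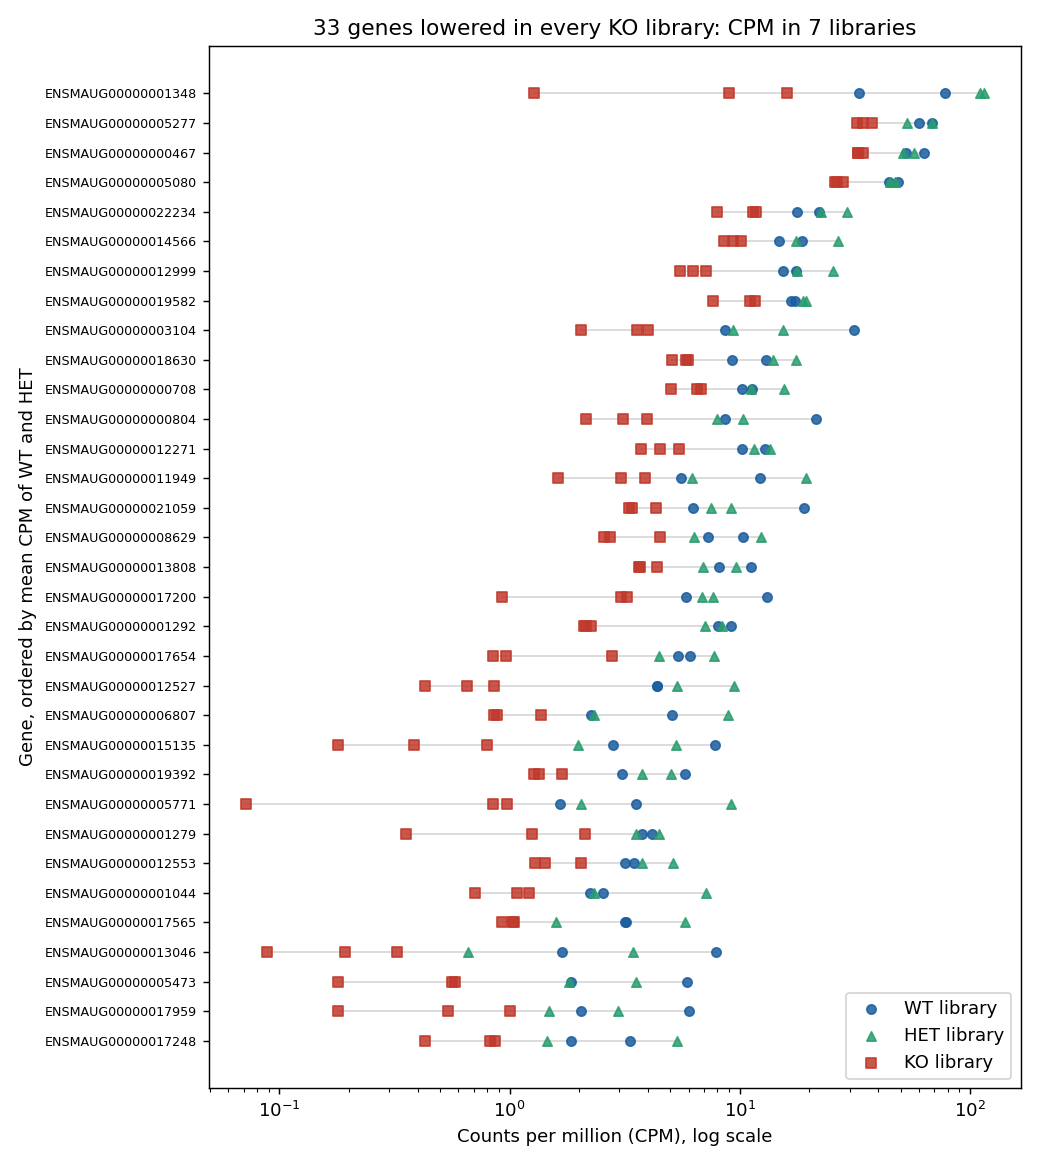
CPM on a log axis for each of the 33 genes, one gene a line, with a point for each of the 2 WT (circles), 2 HET (triangles) and 3 KO libraries (squares), the grey line spanning the range. KO points lie left of all others in each line, as the rule requires, and the gap is narrow in most lines and widest for ENSMAUG00000012527.

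Several genes of intermediate level were lower in KO by 2.09 to 3.02 times. ENSMAUG00000012999 had 15.5 and 17.6 CPM in the WT, 17.7 and 25.4 in the HET and 7.16, 5.48 and 6.28 in the KO libraries. The KO mean was 33.1% of that in WT and HET. ENSMAUG00000022234 had 17.8 and 22.2 CPM in the WT, 29.4 and 22.5 in the HET and 11.4, 7.95 and 11.7 in the KO libraries. ENSMAUG00000014566 had 14.8 and 18.6 CPM in the WT, 26.8 and 17.6 in the HET and 10.1, 9.34 and 8.54 in the KO libraries. In ENSMAUG00000022234 and ENSMAUG00000014566 the KO mean was 45.2% and 47.9% of the other mean, and HET 2 was the highest library in both, whereas HET 3 was in ENSMAUG00000012999.

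ENSMAUG00000019582 had 16.7 and 17.5 CPM in the WT, 18.8 and 19.3 in the HET and 11.7, 7.69 and 11.1 in the KO libraries. WT and HET were tight here (18.1 ± 1.202, SD, n = 4), whereas KO 2 stood below KO 1 and KO 3 (10.2 ± 2.17, SD, n = 3). ENSMAUG00000018630 had 9.24 and 13.0 CPM in the WT, 17.5 and 13.9 in the HET and 5.97, 5.87 and 5.06 in the KO libraries, with the KO libraries close together and WT 1 as the lowest of the others. ENSMAUG00000012271 had 12.8 and 10.2 CPM in the WT, 13.6 and 11.5 in the HET and 5.43, 3.74 and 4.52 in the KO libraries, and its KO mean was 37.9% of the other mean.

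In the next 2 genes the highest library was a WT library. ENSMAUG00000003104 had 31.2 (WT 1) and 8.59 CPM (WT 2) in the WT, 9.37 and 15.4 in the HET and 2.04, 3.56 and 3.98 in the KO libraries. ENSMAUG00000000804 had 8.62 (WT 1) and 21.4 CPM (WT 2) in the WT, 10.3 and 7.99 in the HET and 2.14, 3.96 and 3.12 in the KO libraries. KO means were 19.8% and 25.4% of the WT and HET means, but the lowest WT or HET value exceeded the highest KO value by only 2.16 and 2.02 times.

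The largest separations were found at low levels. ENSMAUG00000012527 had 4.37 and 4.39 CPM in the WT, 5.33 and 9.42 in the HET and 0.655, 0.854 and 0.430 in the KO libraries, or 12 to 29 counts in a KO library. Its separation of 5.12 was the largest of the 8413 genes with a count in KO, and the KO mean was 9.09 times lower. ENSMAUG00000001292 had 9.20 and 8.01 CPM in the WT, 8.40 and 7.07 in the HET and 2.15, 2.26 and 2.11 in the KO libraries. It combined a separation of 3.13 with little spread, the SD being 10.8% of the mean among WT and HET and 3.59% among KO. However, its counts were not whole in 6 of the 7 libraries, so that some of its reads were divided with other loci.

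A group of low genes varied widely among the WT and HET libraries and had 27 counts or fewer in each KO library. ENSMAUG00000013046 had 1.69 and 7.89 CPM in the WT, 0.662 and 3.44 in the HET and 0.193, 0.0883 and 0.323 in the KO libraries, from 5, 3 and 9 counts. ENSMAUG00000015135 had 2.81 and 7.79 CPM in the WT, 1.99 and 5.30 in the HET and 0.385, 0.795 and 0.179 in the KO libraries. ENSMAUG00000005473 had 1.86 and 5.89 CPM in the WT, 1.82 and 3.55 in the HET and 0.578, 0.560 and 0.179 in the KO libraries. The KO means were 17.0, 9.87 and 7.47 times lower, and no KO value reached the lowest WT or HET value, as the rule requires. Single libraries weighed on these sizes, as the DESeq2 log2 fold change of ENSMAUG00000013046 was −4.00 with all libraries and −3.19 without WT 2, and that of ENSMAUG00000015135 was −3.20 and −3.90 without KO 2.

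These 3 genes and ENSMAUG00000017959, which was chosen after its values were seen, had the same order among the other libraries, with WT 2 highest, then HET 3, WT 1 and HET 2, and a range of more than 3 times. This was the case in 4 of the 33 genes (12.1%) and in 121 of the 8414 genes (1.44%), and the pattern was picked after the values were seen. Without the condition on the range, the order was found in 5 of the 33 genes (15.2%), the other being ENSMAUG00000005277, and in 468 of the 8414 genes (5.56%). ENSMAUG00000017959 had 2.04 and 6.03 CPM in the WT, 1.49 and 2.97 in the HET and 0.539, 1.001 and 0.179 in the KO libraries. The order of the 4 libraries is also that of the animals from youngest (17 weeks) to oldest (40 weeks). The part of age in this order was not tested. With age as a covariate in DESeq2, the 33 genes had a median log2 fold change in KO of −1.67, and of −1.70 without it. In genes picked for this order it went from −4.00 to −2.83 (ENSMAUG00000013046), from −3.20 to −2.64 (ENSMAUG00000015135) and from −2.81 to −2.29 (ENSMAUG00000005473), whereas in ENSMAUG00000001348 it went from −3.19 to −3.62.

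The 15 genes outside the naming rule, ENSMAUG00000017959 among them, had means of 3.00 to 12.1 CPM in WT and HET and 0.573 to 6.09 CPM in KO. They were lower in KO by 1.99 to 6.51 times (median 3.49), with separations of 1.44 to 1.83. Over the 33 genes, 5 had a KO library with fewer than 10 counts and 2 had one with 3 counts or fewer, whereas the smallest count in a WT or HET library was 20. None was at or under 3 counts in all KO libraries.

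Most of the 33 genes thus stood low in the range of expression. Their median was 6.58 CPM over the 7 libraries, compared with 20.3 CPM over all 8414 genes, and 23 of them were under 10 CPM. Of the genes with 2 to 10 CPM, 0.789% (23 of 2914) met the rule, compared with 0.262% (10 of 3821) of those with 10 to 100 CPM and none of the 1679 genes with at least 100 CPM. The spread among the WT and HET libraries was wider below 10 CPM (median SD 50.3% of the mean, 23 genes) than above (21.9%, 10 genes). Genes higher in each KO library by the same fold numbered 42 (0.499%), of which 31 were under 10 CPM and 5 had at least 100 CPM.

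**Figure D3:**
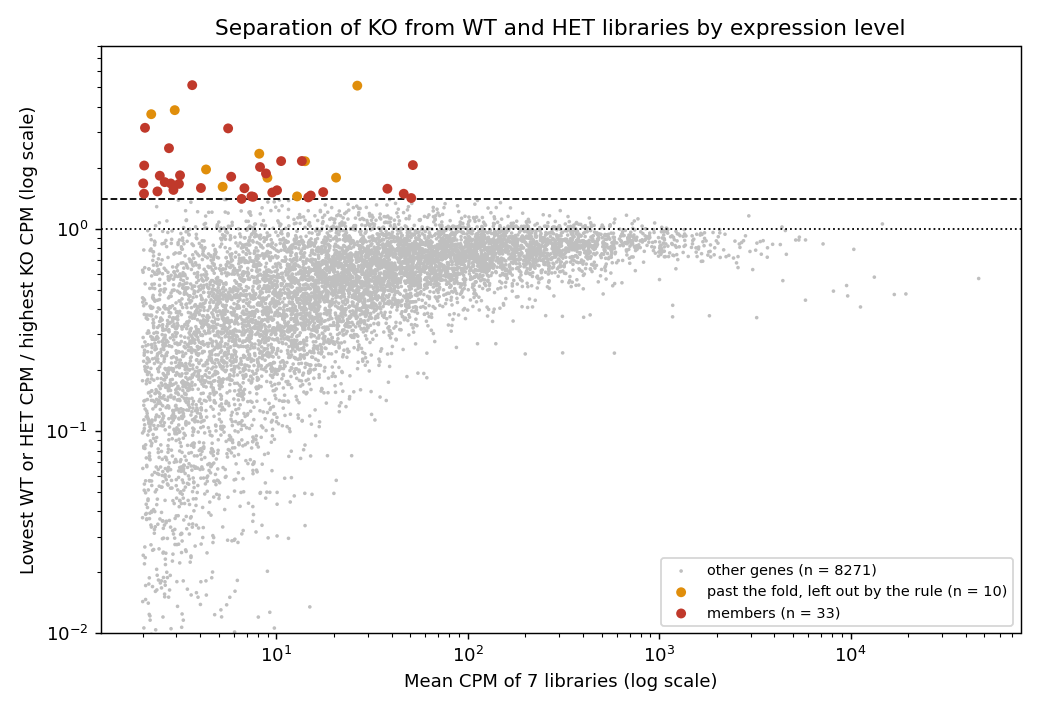
Lowest WT or HET CPM divided by highest KO CPM (log axis) against mean CPM of the 7 libraries (log axis) for genes with a mean of at least 2 CPM, with the 33 genes in red, the 10 others past the fold in orange and all other genes in grey. The dashed line marks the fold of 1.4 and the dotted line a fold of 1, and 156 genes under 0.01 or without a defined value are not drawn.

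At the limit of the rule, just inside were ENSMAUG00000005277, given above, with a separation of 1.42, and ENSMAUG00000008629 at 1.403, which had 10.3 and 7.25 CPM in the WT, 12.3 and 6.34 in the HET and 2.58, 2.74 and 4.52 in the KO libraries. Just outside were ENSMAUG00000016056 and ENSMAUG00000015348, both at 1.39. The first had 8.46 and 5.66 CPM in the WT, 5.73 and 10.5 in the HET and 2.62, 4.06 and 1.18 in the KO libraries. By any fold, KO lay below all WT and HET libraries in 422 of the 8414 genes (5.02%) and above them in 199 (2.37%). This imbalance depended on scaling, and the median log2 ratio of KO to the other libraries over all these genes was −0.10 by column totals, −0.028 by TMM and −0.032 by DESeq2 size factors. With TMM factors, which correct for a few abundant transcripts taking up reads, the numbers were 270 and 278, and with DESeq2 size factors 279 and 267. Over the 1.4-fold limit they were 43 lower and 42 higher by column totals, 35 and 50 by TMM, and 37 and 51 by size factors.

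None of the KO libraries alone set the limit. KO 1, KO 2 and KO 3 were each the highest KO library in 11 of the 33 genes (33.3%), near their shares of the 8414 genes (35.5, 31.9 and 32.6%). The lowest of the WT and HET libraries was WT 1 in 13 genes, HET 2 and HET 3 in 7 each, and WT 2 in 6. WT 1 was the lowest in 24.7% of all 8414 genes, compared with 39.4% of the 33. Genes with both HET libraries below both WT libraries, 16.0% of the 8414, were left out of the 33 by the rule. WT 1 cannot be the lowest in them, so that these shares are not directly comparable.

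HET and WT levels of these genes differed in both directions. The HET mean was below the WT mean in 14 genes and above it in 19 (57.6%, against 48.3% of the 8414 genes), after the rule had taken out 9 genes with HET below WT. The ratio of HET to WT had a median of 1.06 and a range from 0.428 to 2.17, against a median of 0.986 over all genes. It was within 1.5-fold in 23 genes (69.7%), the same share as among the 8414 genes (69.8%). In 7 genes (21.2%, against 12.9%) each HET value exceeded each WT value, and these include ENSMAUG00000001348 and ENSMAUG00000012527. The reverse could not occur, because genes ordered WT over HET over KO had been left out. Among the 43 genes before this step, 9 had each HET value below each WT value (20.9%, against 16.0% of the 8414 genes) and 7 the opposite (16.3%). In the fit over all genes, DESeq2 called none of the 33 genes between HET and WT, and none had an unadjusted p under 0.05 by DESeq2 or edgeR. Among all genes, 0.13% were called as lower and 0.268% as higher in HET, and 3.65% were lower at an unadjusted p under 0.05. With 2 libraries in each group, this does not show that the genotypes are alike.

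**Figure D4:**
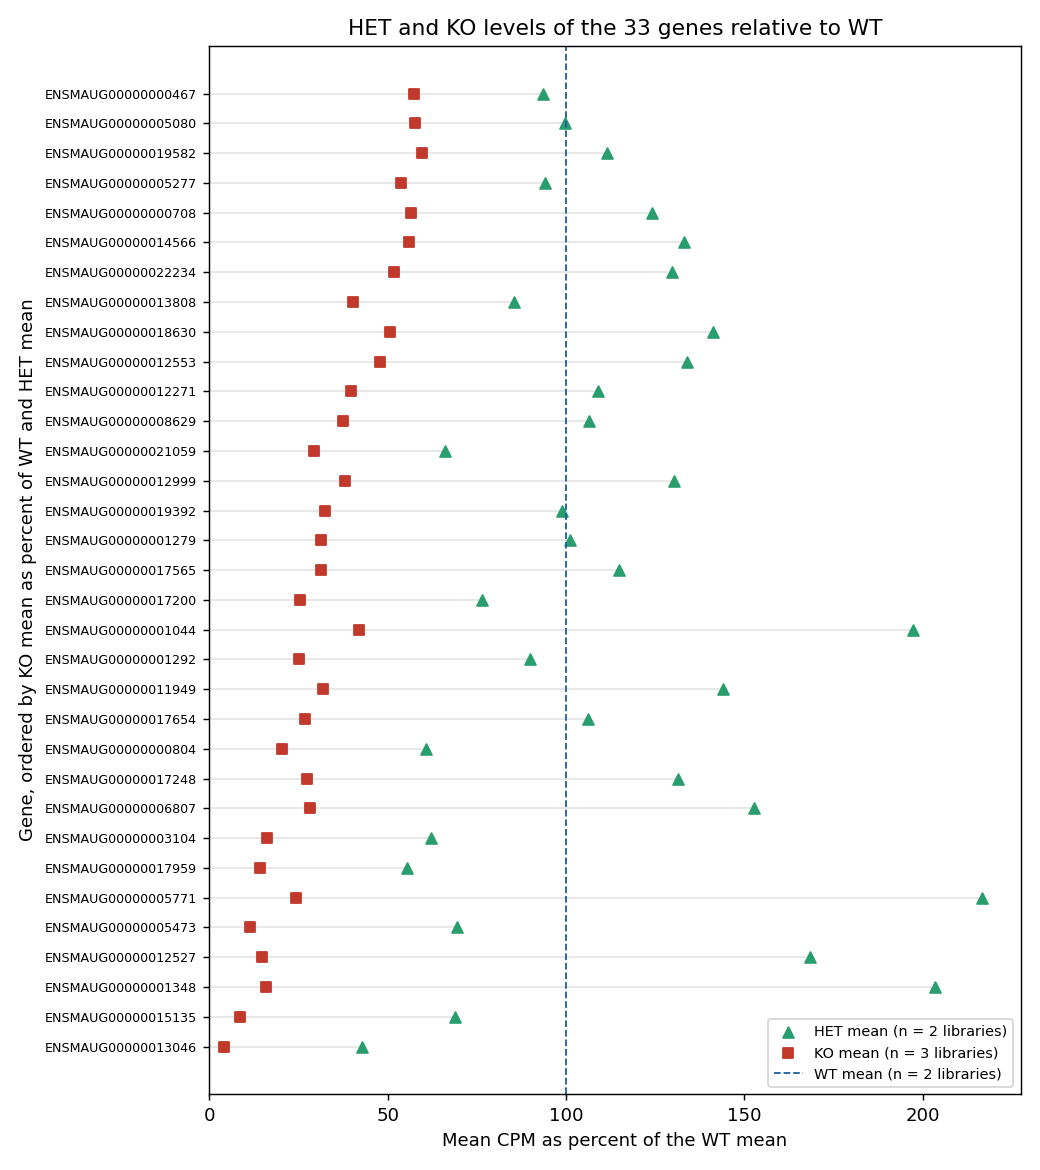
HET mean (triangles, n = 2 libraries) and KO mean (squares, n = 3) of each gene as a percentage of its WT mean (dashed line at 100, n = 2), with genes ordered by the KO mean as a share of the WT and HET mean and grey lines as guides. HET lies on both sides of WT, with ratios from 0.428 to 2.17, while KO lies below both in each gene by selection.

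The model fitted to all genes gave few of these differences past its threshold. With WT and HET pooled as the reference, DESeq2 called 6 of the 33 genes at an adjusted p under 0.01, while 0.158% of all 11364 genes tested were called as lower. At an unadjusted p under 0.05, all 33 were lower, against 3.6% of all genes. As the rule used the same libraries, nothing is read from these counts. The called genes were ENSMAUG00000012527 (log2 fold change −3.11, SE 0.578), ENSMAUG00000012999 (−1.53, SE 0.298), ENSMAUG00000001292 (−1.85, SE 0.370), ENSMAUG00000005277 (−0.78, SE 0.159), ENSMAUG00000005080 (−0.73, SE 0.163) and ENSMAUG00000003104 (−2.28, SE 0.538). Their adjusted p by DESeq2 ranged from 0.000109 to 0.00796. With age as a covariate, or with a filter of 10 counts in 3 libraries, the call of ENSMAUG00000012527 alone among the 6 was kept. With the replicate block, those of ENSMAUG00000001292, ENSMAUG00000005277 and ENSMAUG00000005080 were lost. The log2 fold changes of the 6, in the order above, were −3.32, −1.61, −1.90, −0.72, −0.77 and −2.46 with age as a covariate. They changed little with the filter. Genes with large differences, such as ENSMAUG00000001348 (−3.19, SE 0.857) and ENSMAUG00000013046 (−4.00), were not called, and their adjusted p by DESeq2 was 0.0358 and 0.0177. ENSMAUG00000001348 was called by DESeq2 when KO 3 was left out (−2.68, adjusted p 2.33e-05) and when KO 1 was (−3.97, adjusted p 0.00977), and ENSMAUG00000013046 without HET 2 (−4.33, adjusted p 0.00356). Among the other named genes, leaving out a library added the calls of ENSMAUG00000015135 (without KO 2) and of ENSMAUG00000000467 and ENSMAUG00000000804 (both without HET 3).

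By edgeR, called genes numbered 0 of the 33 in this comparison, with 25 at an unadjusted p under 0.05 and adjusted p from 0.366 to 0.947. Of all 11220 genes, edgeR likewise called 0 as lower in KO, and placed 2.58% lower at an unadjusted p under 0.05. The DESeq2 calls changed when single libraries were left out, among the 33 genes and among all genes, of which 34 were called in either direction with all 7 libraries. Without KO 3, 1 of the 33 genes, ENSMAUG00000001348, and 17 of all genes were called, and none of the 6 above was. Without KO 1 the counts were 3 and 23, and without KO 2 they were 3 and 25. Without WT 1, 2 of the 33 and 32 of all genes were called, without WT 2 these were 3 and 22, without HET 2 they were 5 and 40, and without HET 3 they were 6 and 57. Among the 7 fits with a library left out, the call of ENSMAUG00000012527 was lost without KO 3 alone (DESeq2 adjusted p 0.0115), and that of ENSMAUG00000012999 without KO 2 or KO 3. The call of ENSMAUG00000003104 was lost without WT 1, HET 3 or any KO library, that of ENSMAUG00000005277 without any WT or KO library, that of ENSMAUG00000001292 without any library but HET 3, and that of ENSMAUG00000005080 whichever library was left out. The log2 fold changes stayed between −0.76 and −0.69 for ENSMAUG00000005080 and between −2.49 and −1.72 for ENSMAUG00000003104 in these fits. They lay between −3.364 and −2.816 for ENSMAUG00000012527 and between −1.635 and −1.381 for ENSMAUG00000012999. For ENSMAUG00000001292 they lay between −1.925 and −1.775, and for ENSMAUG00000005277 between −0.8365 and −0.7387.

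Against the WT libraries alone, DESeq2 called 1 of the 33 genes, ENSMAUG00000003104 (log2 fold change −2.58, SE 0.633), and 0.104% of all genes as lower, with 24 of the 33 and 2.88% of all genes lower at an unadjusted p under 0.05. Against the HET libraries alone it called 2, ENSMAUG00000012527 (−3.44, SE 0.703) and ENSMAUG00000012999 (−1.71, SE 0.371), and 0.0433% of all genes as lower, with 30 of the 33 and 2.79% of all genes lower at an unadjusted p under 0.05. Both comparisons share the KO libraries. Against WT, where 64 of all genes were called in either direction, none of the 33 was called without WT 1, HET 3, KO 1 or KO 2, while 78, 93, 20 and 28 of all genes were. Against HET, where 35 of all genes were called, none of the 33 was called without HET 3, KO 1 or KO 2, while 48, 15 and 10 of all genes were. Without WT 1, WT 2 or KO 3, 1 of the 33 was called against HET, and 49, 47 and 14 of all genes were. The median log2 fold change of the 33 genes was −1.59 against WT and −1.64 against HET, while that of all genes tested was 0.01 in each. The rule required each KO library to lie below each WT and HET library, so that nothing is read from these medians and counts.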

How the data were processed

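The authors aligned single-end reads to MesAur1.0 with STAR (version 2.7.3a) and counted them over exons of Ensembl release 99 with featureCounts (version 2.0.0), unstranded. A read that matched more than one place or gene was split among them, so that the deposited values are estimated counts, of which 10.2 to 11.8% per library were not whole. Values of paralogues, overlapping and antisense genes are uncertain for this reason. No molecular identifiers are described for these libraries, so that counts are of amplified reads. The tests set differences between groups against the spread between libraries, in which animal, pool of oocytes and amplification are mixed. The study's methods named DESeq2 and an adjusted p under 0.01.

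CPM was computed from the estimated counts and column totals (24242442 to 33956304). For tests, estimated counts were rounded and the whole table was fitted with DESeq2 (version 1.42.0, R 4.3.3, two-sided Wald test, default filters), once with KO against the other 4 libraries and once with genotype as a 3-level factor. Adjusted p-values are Benjamini-Hochberg values over all genes. edgeR (version 4.0.16, quasi-likelihood, TMM) was the principal alternative, and others changed scaling, filters, covariates and libraries. The functions were tested on simulated data. Plots were drawn with matplotlib (version 3.10.9).

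The 33 genes, the lists and the tests were chosen with earlier results of these data known. Genes were named by rule: the 10 with the highest mean CPM, the 10 with the largest separation, those called by DESeq2 against WT and HET together, and 2 on each side of the 1.4-fold limit. Another part of the rule needed gene symbols and could not be applied. ENSMAUG00000017959 is named besides these. Cell type markers, gene lists, promoter motifs and genome positions had been planned and were not analysed here, because none of the Ensembl identifiers matched the RefSeq gene table (BCM_Maur_2.0). Libraries carry separate animal codes in their labels.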

Additional observations from a re-analysis of the deposited data

How the results depend on the processing

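With the other settings kept, TMM scaling left 27 genes (25 of the 33), DESeq2 size factors 28 (27 of the 33) and a minimum of 1 CPM 40. A separation of 2 left 9 and one of 1.2 gave 85, and a minimum of 10 CPM left 10. Rules on 6 libraries gave 39 (without WT 2) to 105 genes (without KO 2). All 33 stayed without any one KO library, as the rule is then looser, and 23 to 25 stayed without a WT or HET library. Of the 8 to 10 lost in each case, 5 to 9 then met the exclusion of ordered or WT-high genes.

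For KO against WT and HET together (6 calls), edgeR gave 0, a filter of 10 counts in 3 libraries 1, age as a covariate 1 and an adjusted p under 0.05 gave 12, with 1 to 6 when a library was left out. Over all genes, with 34 calls in either direction, the first 4 of these settings gave 4, 19, 19 and 68. Against WT (1 call) these gave 0, 0, 0 and 8, with 0 to 1 when a library was left out, and over all genes (64 calls) 1, 36, 30 and 135. Against HET (2 calls) edgeR, the filter and age gave 0 each, and an adjusted p under 0.05 gave 2, with 0 to 2 when a library was left out, and over all genes (35 calls) these 4 gave 2, 14, 12 and 55. A single WT or HET library left in a group was taken to vary like the others. The cause was not tested. Among 252 alternative values of named genes, 193 stayed on the same side of the test's limit, 45 dropped out of the calls and 14 entered them. All 45 came from the 6 called genes, whereas most of the 193 came from genes not called in the main fit. The 6 called genes kept their calls in 2 (ENSMAUG00000005080) to 11 (ENSMAUG00000012527) of 13 alternatives at the 0.01 limit. None of the 252 changed sign, which the choice of genes with each KO library below the others largely fixed in advance. Depth limits the 5 genes with under 10 counts in a KO library.

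Replicate numbers name different animals. Deviations from genotype means correlated by −0.026 to 0.080 in 5 pairs of the same number, although each of the 7 libraries correlated best with its own number. In WT and in HET, with 2 libraries each, the deviations of the libraries mirror each other, so that these 7 matches are not independent. With the replicate block, 3, 0 and 1 of the 33 genes were called in the above order of comparisons, and 0 between HET and WT. Calls over all genes, in either direction, went from 34 to 134, from 64 to 85 and from 35 to 147 in the first 3.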
